A study of Mus musculus with 4 samples.

Results

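The HoxB cluster of the mouse is a run of homeobox genes on chromosome 11, and its 10 genes, Hoxb1 to Hoxb9 and Hoxb13, were followed here across a 4-array study of P19 cells. All 10 were found by their gene symbols in the probe annotation of the array, out of 22180 genes with a symbol of their own, through 11 probe sets with a single symbol. P19 is a mouse embryonal carcinoma line, derived from a teratocarcinoma, that differentiates in retinoic acid. The 4 groups held 1 array each. Wild-type P19 cells received the ethanol vehicle or 10 µM retinoic acid, given for 4 days. A P19 clone with the stable integrates pBI-EGFP-FLAG-mCtcfl and pTA-N, called the Ctcfl clone here, received the same vehicle or the same retinoic acid. In this Tet-Off system doxycycline at 2 µg/ml holds the Ctcfl transgene off, and the clone had been taken off doxycycline 2 days before extraction. For wild-type P19 the labels conflict: the growth description has them in plain medium, and the sample characteristics list 2 µg/ml doxycycline. The line therefore differs from wild type in its vectors, in being 1 clone, possibly in doxycycline and in Ctcfl, and these cannot be told apart.

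Hox genes encode transcription factors with a homeodomain that give the cells of the embryo their position along the head-to-tail axis. Within a cluster the genes lie in the order in which they are switched on and in which their domains follow each other along the axis, from Hoxb1 at the 3′ end, the hindbrain gene, to Hoxb13 at the 5′ end, which lies apart from the rest and is known from the tail bud and the prostate. Retinoic acid binds its nuclear receptors at response elements near the 3′ Hox genes, and embryonal carcinoma cells are a classical model of this activation.

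The start of 3 of the 10 genes was covered by the RefSeq promoter table, and the 250 bases before each start on GRCm38.p6 are printed because these genes stand for the 3′ end, the middle and the 5′ part of the cluster. All lie on the plus strand, Hoxb1 at chr11:96365508-96365757, Hoxb4 at chr11:96318017-96318266 and Hoxb8 at chr11:96281655-96281904. Capitals mark matches to the motifs described after the sequences.
Hoxb1: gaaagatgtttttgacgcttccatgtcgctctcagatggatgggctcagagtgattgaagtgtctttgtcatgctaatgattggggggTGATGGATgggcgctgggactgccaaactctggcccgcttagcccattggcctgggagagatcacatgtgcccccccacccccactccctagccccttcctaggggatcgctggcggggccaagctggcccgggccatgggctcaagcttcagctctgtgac
Hoxb4: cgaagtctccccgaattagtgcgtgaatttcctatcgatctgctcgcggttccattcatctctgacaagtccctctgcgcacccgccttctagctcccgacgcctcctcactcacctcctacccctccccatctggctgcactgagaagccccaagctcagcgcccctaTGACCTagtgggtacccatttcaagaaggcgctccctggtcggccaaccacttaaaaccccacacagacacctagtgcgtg
Hoxb8: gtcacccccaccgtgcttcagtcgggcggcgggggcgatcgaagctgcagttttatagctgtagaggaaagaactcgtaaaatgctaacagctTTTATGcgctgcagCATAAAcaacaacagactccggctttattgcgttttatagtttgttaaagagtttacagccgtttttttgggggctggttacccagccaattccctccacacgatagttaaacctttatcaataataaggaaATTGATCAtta

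Both strands of these windows were searched for the receptor hexamers AGGTCA and also AGTTCA together with GGGTCA as well as GGTTCA, for direct repeats of these hexamers spaced by 1, 2 or 5 bases, for TGATNNAT, a site of Hox proteins with their Pbx partners, for TTTATG, a Cdx core, and for GGNGGCAG, part of the Ctcf motif. The Hoxb1 window held TGATGGAT between 162 and 155 bases before the start. A match to this Hox-Pbx motif occurred in 7.68% of the 32851 windows in the table. The Hoxb4 window held the hexamer AGGTCA on the minus strand, and 38.6% of windows held at least 1 of the 4 hexamers. The Hoxb8 window held TTTATG on each strand, as did 10.8% of windows on either strand, and TGATCAAT on the minus strand within 11 bases of the start. None of the 3 windows held a direct repeat, which the table had in 0.164%, 0.174% and 0.0883% of windows at spacings of 1, 2 and 5, and none held GGNGGCAG, which 9.93% of windows had. These are matches of letters and say nothing of binding, and elements outside the windows were not searched.

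Signals are log2 values made by robust multi-array average (RMA), and a difference of 1 is a 2-fold change of signal. As a guide to background, the 95th percentile of 1105 olfactory receptor genes, which most cells outside the nose do not express, lay between 6.82 and 6.95 on the 4 arrays. In vehicle, 3 of the 10 HoxB genes in wild-type P19 and 4 in the Ctcfl clone were above that level. In retinoic acid all 10 were above it in both lines. The vehicle signals of the other genes are thus not clearly above background, and the folds that rest on them are not exact. Every HoxB gene had a signal above log2 6 on all 4 arrays, so that none passed the filter through its retinoic acid arrays alone. The probe set that stands for Hoxb5 was, however, chosen through those arrays, as described below. Arrays correlated with each other at r between 0.961 and 0.985 over all probe sets.

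All 10 HoxB genes rose with retinoic acid. Averaged over the lines, the rise ran from log2 0.77 for Hoxb13 to 3.86 for Hoxb1, with a median of 2.09, whereas the median of all genes was -0.05. The test was a limma fit over 18310 genes with 1 term for retinoic acid and 1 for the line, in which 4.21% of all genes rose and 2.44% fell past an adjusted p of 0.05. With 1 array per group this fit has 1 residual degree of freedom and takes the difference between the lines' responses as its error, so that its adjusted p-values are approximate. Both retinoic acid arrays were above both vehicle arrays for 10 of 10 HoxB genes, against 22.8% of all genes. In bulk RNA, fewer cells of a type and less RNA per cell cannot be told apart, so a rise may lie in many cells or in few.

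**Figure D1:**
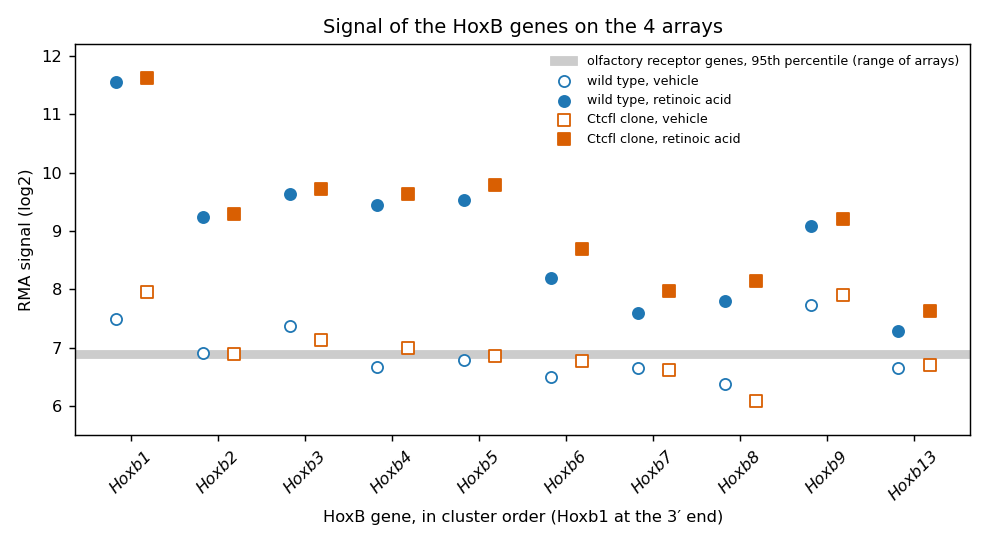
RMA signal (log2) of each HoxB gene on each array, in cluster order from Hoxb1 to Hoxb13; open symbols are vehicle and filled symbols retinoic acid, circles wild type and squares the Ctcfl clone, with 1 array per group, and the grey band spans the olfactory receptor 95th percentiles of 6.82 to 6.95. Filled symbols lie above open ones for all 10 genes. Signals of different genes come from different probes and are not comparable in height.

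Hoxb1, the most 3′ gene and a determinant of the fourth hindbrain segment, had signals of log2 7.50 in wild-type P19 with vehicle and 11.55 with retinoic acid. In the Ctcfl clone they were 7.96 and 11.63. Both vehicle arrays were low and both retinoic acid arrays high, with no overlap. The rise was 14.5-fold (log2 3.86 ± 0.17, SE, limma adjusted p = 0.000335), which was the fourth highest effect in the table (rank 4 of 18310 genes).

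Hoxb2, expressed in the hindbrain behind the second segment, went from 6.91 to 9.24 in wild-type P19 and from 6.89 to 9.29 in the Ctcfl clone. Its values in the lines nearly coincided in each state. It rose 5.16-fold (log2 2.37 ± 0.15, SE, limma adjusted p = 0.000878). Hoxb3, whose product acts in the hindbrain and in thyroid and blood progenitors, went from 7.37 to 9.63 in wild-type P19 and from 7.13 to 9.72 in the Ctcfl clone. It rose 5.36-fold.

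Hoxb4, a gene of the posterior hindbrain and of blood stem cells, went from 6.67 to 9.45 in wild-type P19 and from 6.99 to 9.64 in the Ctcfl clone. The rise was 6.57-fold (log2 2.72 ± 0.15, SE, limma adjusted p = 0.000571). Hoxb5, which acts at the level of the neck and shoulder and in enteric neurons, went from 6.79 to 9.54 and from 6.86 to 9.78 in the same order. Its rise of 7.13-fold (log2 2.83 ± 0.15, SE) was the next after that of Hoxb1. Hoxb5 had a further probe set, which went from 7.43 to 7.99 in wild-type P19 and from 7.44 to 8.09 in the Ctcfl clone. Both Hoxb5 probe sets were higher with retinoic acid, but the differences of the further one were log2 0.56 and 0.66 against 2.75 and 2.92. The further probe set had the higher signal in vehicle and the lower in retinoic acid. The probe set that stands for the gene thus had the higher mean only through its retinoic acid arrays. In the gene table Hoxb5 lies within the interval of the noncoding gene Hoxb5os, and whether the further probe set reads that transcript was not tested.

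Hoxb6 to Hoxb9 are genes of the trunk level and of the developing spinal cord. Hoxb6 went from 6.49 to 8.20 in wild-type P19 and from 6.76 to 8.69 in the Ctcfl clone, a rise of 3.53-fold. Hoxb7 went from 6.65 to 7.59 and from 6.61 to 7.97, a rise of 2.22-fold (log2 1.15 ± 0.17, SE, limma adjusted p = 0.0136). For each gene both arrays with retinoic acid were the high ones. Hoxb8 went from 6.38 to 7.80 in wild-type P19 and from 6.09 to 8.15 in the Ctcfl clone, a rise of 3.34-fold with the widest error of the cluster (SE 0.19). Hoxb9 went from 7.74 to 9.09 and from 7.91 to 9.21, a rise of 2.50-fold.

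Hoxb13 went from 6.66 to 7.29 in wild-type P19 and from 6.71 to 7.62 in the Ctcfl clone. Its groups did not overlap either, and its rise was 1.71-fold (log2 0.77 ± 0.16, SE, limma adjusted p = 0.0382). Of the genes whose p is not given above, Hoxb3, Hoxb5, Hoxb6, Hoxb8 and Hoxb9 had limma adjusted p-values of 0.00107, 0.000529, 0.00216, 0.00583 and 0.00585. Hoxb13 was the only HoxB gene whose call was lost when the line term was left out of the fit (adjusted p = 0.0895). Against a limit of 2-fold in place of 0, 5 HoxB genes passed, namely Hoxb1 to Hoxb5, where 102 of 18310 genes passed in either direction. The Hoxb5 call rests on the probe set of higher mean, which was chosen through its retinoic acid arrays. The call is therefore not independent of that choice. The further Hoxb5 probe set was 1.47-fold higher with retinoic acid in wild-type P19 and 1.58-fold in the Ctcfl clone.

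The rise was larger toward the Hoxb1 end of the cluster than toward the Hoxb13 end, but it did not fall gene by gene. From Hoxb2 to Hoxb5 the effects went the other way, at log2 2.37, 2.42, 2.72 and 2.83. Hoxb8 at 1.74 was above Hoxb7 at 1.15. Hoxb1 to Hoxb5 had retinoic acid effects between log2 2.37 and 3.86, and the 5 genes from Hoxb6 to Hoxb13 had effects between 0.77 and 1.82, so the 2 blocks did not overlap. The same separation was seen in wild-type P19 alone, with 2.26 to 4.05 against 0.64 to 1.71, and in the Ctcfl clone alone, with 2.41 to 3.67 against 0.91 to 2.06. It rests on the Hoxb5 probe set of higher mean over the 4 arrays. That probe set was the lower one in vehicle and the higher one in retinoic acid, so its choice followed the response. With the mean of both Hoxb5 probe sets, Hoxb5 had an effect of 1.72, below Hoxb6 at 1.82 and Hoxb8 at 1.74. Its differences were then 1.65 in wild-type P19 and 1.79 in the Ctcfl clone, and the blocks overlapped in each. Spearman's rho between place in the cluster and the retinoic acid difference was -0.87 in wild-type P19 and -0.84 in the Ctcfl clone over 10 genes. Without Hoxb13 it was -0.82 and -0.78. These are descriptions over genes that share the same arrays.

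Ranked by effect, the genes ran Hoxb1, Hoxb5, Hoxb4, Hoxb3, Hoxb2, Hoxb6, Hoxb8, Hoxb9, Hoxb7 and Hoxb13. Of the 9 steps in this order, 2 exceeded 2 combined standard errors. These errors treat genes on the same arrays as independent and leave out differences between probe sets. The 2 larger steps are therefore a description and not a test. The step from Hoxb1 to Hoxb5 was log2 1.02 with a combined SE of 0.22, and the step from Hoxb2 to Hoxb6 was 0.55 with a combined SE of 0.21. The other 7 steps were below 2 combined standard errors, so the ranking within Hoxb2 to Hoxb5 and within Hoxb6 to Hoxb13 step by step is not resolved. In both blocks there were genes whose vehicle signals lay within the background range, Hoxb2 and Hoxb5 in both lines and Hoxb4 in wild-type P19 on one side, and Hoxb6, Hoxb7, Hoxb8 and Hoxb13 in both lines on the other. The part of this in the order was not tested.

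In wild-type P19 alone, 8 of 10 HoxB genes were at least 2-fold higher with retinoic acid, where 2.58% of all genes were. Hoxb7 at 1.92-fold and Hoxb13 at 1.55-fold were the genes below 2-fold. In the Ctcfl clone 9 of 10 were at least 2-fold higher, where 3.21% of all genes were, and Hoxb13 was at 1.88-fold. The median difference of the HoxB genes was log2 1.98 in wild-type P19 and 2.23 in the Ctcfl clone. Single arrays give no test of these values. For scale, probe sets of the same gene differed in these comparisons with SDs of 0.303 and 0.331, pooled over 874 genes.

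The genes beside the cluster were read as a comparison. Of the 10 nearest protein-coding genes on each side in the gene table, 17 had a value and 16 were past the filter, of which 0 rose and 0 fell in limma, with 3 of 16 at an unadjusted p below 0.05, where 23.5% of all genes were. With 4.21% of all genes called higher and 2.44% called lower, these counts are near the background. Their effects lay between log2 -0.38 and 0.74 beyond Hoxb1 and between -0.65 and 0.16 beyond Hoxb13. Skap1, an adaptor of T cells and the first gene beyond Hoxb1, had signals of 7.16 and 7.01 in wild-type P19 and 7.17 and 7.02 in the Ctcfl clone. Ttll6, a tubulin polyglutamylase gene and the first beyond Hoxb13, had 7.22 and 6.79 in wild-type P19 and 7.15 and 7.04 in the Ctcfl clone. The highest effect among these neighbours was that of Copz2, a coat protein gene, at log2 0.74 (limma adjusted p = 0.222). It rested on the Ctcfl clone, where Copz2 went from 8.77 to 10.21, while in wild-type P19 it had 9.97 and 10.00.

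**Figure D2:**
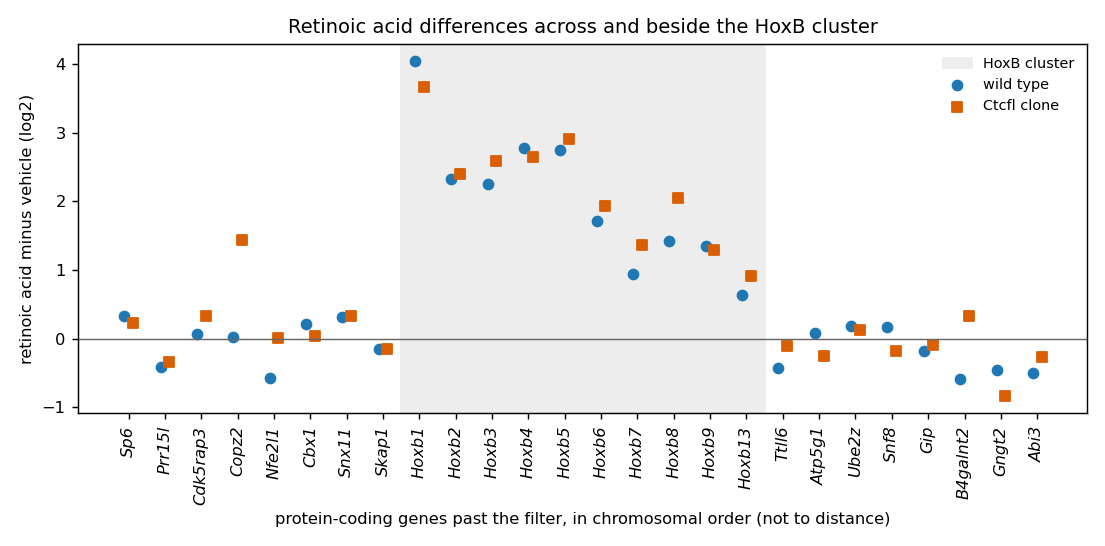
Retinoic acid minus vehicle (log2) for the 10 HoxB genes, shaded, and for the 16 neighbouring protein-coding genes past the filter, in chromosomal order without distances; circles are wild type and squares the Ctcfl clone, 1 array pair each. The HoxB values lie between 0.64 and 4.05, and Copz2 in the Ctcfl clone is the neighbour furthest above 0.

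The cluster also holds microRNA genes, which are shown since each lies between HoxB genes. The mature strands follow with the seed, bases 2 to 8, in capitals, from RefSeq on GRCm38.p6. miR-10a-5p comes from chr11:96317186-96317208, beside Hoxb4, and miR-196a-5p from chr11:96265187-96265208, between Hoxb9 and Hoxb13. Their seeds differ.
miR-10a-5p: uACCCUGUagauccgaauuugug
miR-196a-5p: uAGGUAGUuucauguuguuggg

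Mir196a-1, known for cleaving Hoxb8 transcripts, had signals of 5.82 and 5.85 in wild-type P19 with vehicle and retinoic acid, and 6.28 and 6.73 in the Ctcfl clone. Its retinoic acid effect was log2 0.24 (limma adjusted p = 0.43) and all 4 signals were within the background range. A probe set assigned to Mir10a and Hoxb4 together, and so to neither by name, went from 3.28 to 5.98 in wild-type P19 and from 3.21 to 6.63 in the Ctcfl clone, and these 4 signals too were within the background range. A probe set assigned to Hoxb3 and Hoxb2 together went from 7.37 to 8.07 and from 7.23 to 8.22. Each was higher with retinoic acid on both array pairs. The predicted genes Gm53 and Gm11538, which also lie within the cluster, had effects of log2 -0.13 and -0.36 (limma adjusted p = 0.733 and 0.204).

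The line itself gave no call in the cluster. In limma 0 of 10 HoxB genes differed between the Ctcfl clone and wild type averaged over the states, against 0.0437% of all genes, and adjusted p-values lay between 0.493 and 0.984. The lowest was that of Hoxb6 (log2 0.38 ± 0.15, SE, limma adjusted p = 0.493), whose unadjusted p of 0.0437 made it 1 of 10 below 0.05, where 9.81% of all genes were. Every other model tried also gave 0. Ctcfl, the zinc finger paralog of Ctcf that the clone expresses from its transgene, had signals of 7.86 and 7.13 in wild-type P19 and 10.41 and 9.56 in the Ctcfl clone, and its line effect was log2 2.49 (limma adjusted p = 0.00645). The clone thus carried the raised signal in both states.

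In vehicle the line differences of the HoxB genes went both ways, 6 above 0 and 4 below, from log2 -0.28 for Hoxb8 to 0.46 for Hoxb1, with a median of 0.07. None reached 2-fold, as 1.82% of all genes did. Taking as technical spread the SD between probe sets of the same gene, which was 0.262 in this comparison, 4 of 10 HoxB genes were beyond 1 SD, where 35.8% of all genes were. Hoxb1, Hoxb4 and Hoxb6 were higher in the Ctcfl clone and Hoxb8 lower. That share is near the background. The technical SD comes from probe sets on 1 array pair and holds no variation between arrays or cultures.

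In retinoic acid all 10 HoxB genes had a higher signal in the Ctcfl clone, where 46.1% of all genes did. The differences were small, from log2 0.05 for Hoxb2 to 0.49 for Hoxb6, with a median of 0.22, and none reached 2-fold, as 1.23% of all genes did. Hoxb5, Hoxb6, Hoxb7, Hoxb8 and Hoxb13 were beyond the technical SD of 0.226, which is 5 of 10, against 36.9% of all genes. The count of 5 of 10 is near that share. Hoxb6 was 1.41-fold, Hoxb7 1.30-fold and Hoxb8 1.28-fold higher. Hoxb1, Hoxb2 and Hoxb3 were within 0.09 of wild type. When the arrays were quantile normalized, 9 of 10 remained above 0. The other Hox genes leaned the same way in retinoic acid, with 21 of 26 higher in the Ctcfl clone and a median of log2 0.26. By cluster these were 9 of 9 HoxA, 6 of 9 HoxC and 6 of 8 HoxD genes, so the pattern is not particular to HoxB. The 10 HoxB genes were read from the same array pair and there is no test of this pattern.

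**Figure D3:**
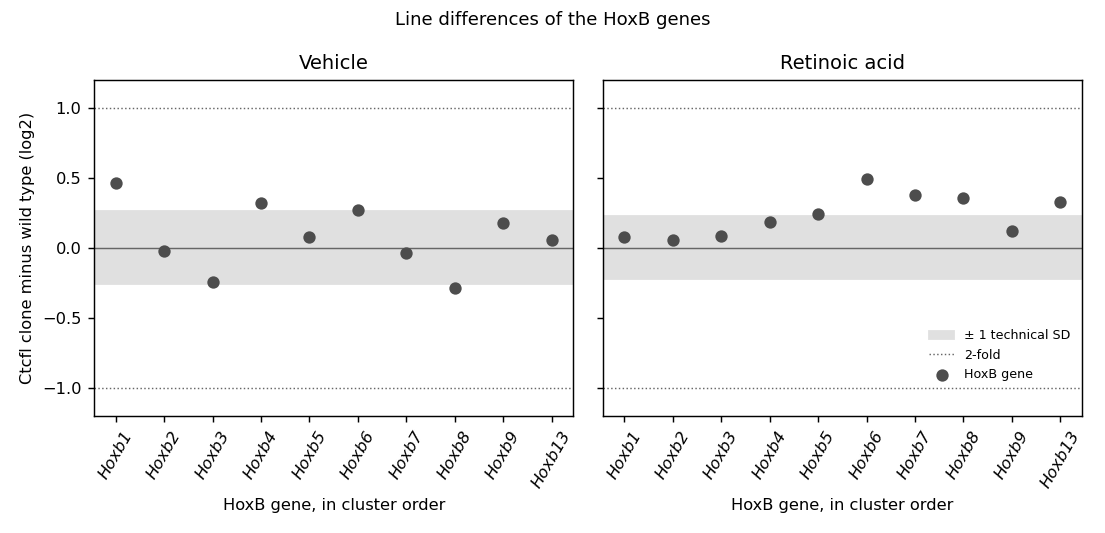
Ctcfl clone minus wild type (log2) for each HoxB gene, in vehicle on the left and in retinoic acid on the right, 1 array pair each. The grey band is 1 technical SD (0.262 and 0.226), between probe sets of the same gene and without variation between arrays or cultures. The dotted lines mark 2-fold. Points lie on both sides of 0 in vehicle and above 0 in retinoic acid.

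For each HoxB gene the responses of the lines were less than 2-fold apart. The difference of the responses, Ctcfl clone minus wild type, lay between log2 -0.39 for Hoxb1 and 0.64 for Hoxb8, with a median of 0.19, and was above 0 for 7 of 10 HoxB genes, where 48.7% of all genes were. A difference of 2-fold or more was found for 2.65% of all genes, and the SD over all genes was 0.411. Hoxb8 rose 2.68-fold in wild-type P19 and 4.16-fold in the Ctcfl clone, and Hoxb1 16.6-fold and 12.7-fold. With the interaction in the model no degree of freedom is left, so these differences have no test.

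Across the other Hox clusters, measured with 26 genes, retinoic acid raised 10 and lowered 0 past the limma threshold, with a median effect of log2 0.55 against 2.09 for HoxB. By cluster, 5 of 9 HoxA, 4 of 9 HoxC and 1 of 8 HoxD genes rose. These clusters include genes of groups 10 to 12, which HoxB lacks, with effects between log2 -0.29 and 0.08. The medians and counts are thus over sets of unlike make-up. Each HoxB gene was set beside its paralogs, the genes of the same group number in the other clusters, which descend from a common ancestral gene. Of 19 such paralogs 14 had a lower effect than their HoxB counterpart, and the HoxB gene was the highest of its group in 6 of 10 groups. Hoxb1 was at log2 3.86 and Hoxd1 at 0.67. In the second group Hoxa2, at 2.91, was above Hoxb2. In the fifth group Hoxa5 and Hoxc5, at 4.81 and 3.82, were above Hoxb5. Hoxc5 had vehicle signals of 4.62 and 5.56, below log2 6, so it passed the filter through its retinoic acid arrays and its effect is not exact. Hoxc6 at 1.96 and Hoxc8 at 1.77 were above Hoxb6 and Hoxb8 by less than their standard errors. In group 13 the paralogs lay between -0.39 and -0.03 and 0 of 3 were called, whereas Hoxb13 was at 0.77. A decline of the effect with group number was seen in every cluster, with Spearman's rho of -0.84 for HoxB over its 10 genes, -0.88 for HoxA over 9, -0.93 for HoxC over 9 and -0.93 for HoxD over 8. The difference between clusters was not tested.

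**Figure D4:**
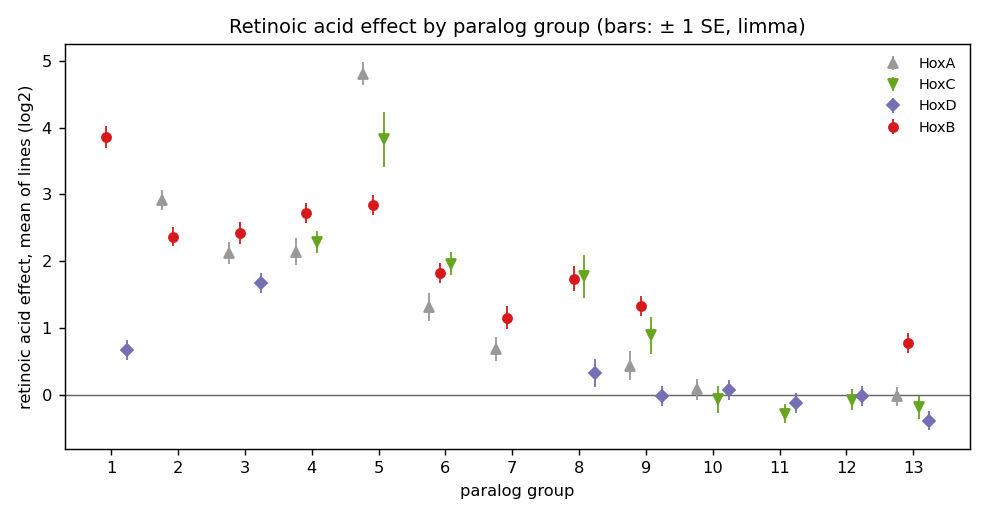
Retinoic acid effect averaged over the lines (log2) for the Hox genes past the filter against their paralog group; circles are HoxB, up triangles HoxA, down triangles HoxC and diamonds HoxD, and bars are ± 1 SE from limma. Effects of HoxB run from 3.86 in group 1 to 0.77 in group 13, where the other clusters lie between -0.39 and -0.03.

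Genes of the pathways around HoxB were read on the same arrays. Of 17 measured genes of retinoid signalling, limma called 9 higher and 2 lower. Dhrs3, which reduces retinaldehyde, rose by log2 3.46, and Rarb, a receptor that is itself a direct target, by 3.34, from 6.63 to 10.09 in wild-type P19. Crabp1, a cytoplasmic retinoic acid binding protein, rose by 3.15, and Cyp26a1, which degrades retinoic acid, by 2.96. The rise of Cyp26a1 was log2 2.15 in wild-type P19 and 3.77 in the Ctcfl clone. The receptor genes Rxrg and Rarg fell by 1.76 and 1.07 on the same scale. Of 8 Hox cofactors of the Meis, Pbx and Pknox families, which bind DNA together with Hox proteins, 4 rose and 0 fell. Meis1 rose by log2 4.81, Meis2 by 2.72, Pbx2 by 1.25 and Meis3 by 0.77 (limma adjusted p = 0.00012, 0.00743, 0.0187 and 0.0322). Meis2 rose by 3.46 in wild-type P19, from 8.49, and by 1.97 in the Ctcfl clone, from 10.02.

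Among 8 regulators known upstream of Hoxb genes, 3 rose and 1 fell. Nr2f2 and Nr2f1, orphan nuclear receptors of the hindbrain, rose 5.12-fold and 3.07-fold averaged over the lines. The rise was log2 2.72 in wild-type P19 and 1.99 in the Ctcfl clone for Nr2f2, and 2.37 and 0.87 for Nr2f1. Cdx1, a caudal homeobox factor of the posterior axis, rose 1.84-fold. Cdx2 and Cdx4 of the same family had effects of log2 -0.59 and -0.75 and were not called (limma adjusted p = 0.289 and 0.233). Their retinoic acid differences were 0.07 and 0.00 in wild-type P19 and -1.26 and -1.49 in the Ctcfl clone. In vehicle Cdx2 had 7.09 in wild-type P19 and 8.37 in the Ctcfl clone, and Cdx4 6.35 and 7.94. Single arrays leave these line differences untested. Egr2, which activates Hoxb2 in hindbrain segments, fell by 1.00 on the log2 scale (limma adjusted p = 0.0154), with signals of 8.20 and 7.10 in wild-type P19 and 8.07 and 7.16 in the Ctcfl clone, while Hoxb2 rose on the same arrays. Of 18 Polycomb and Trithorax genes, whose products keep Hox clusters silent or active, 0 rose and 2 fell, where 2.44% of all genes fell, and 8 of 18 had an unadjusted p below 0.05, where 23.5% of all genes did. Phc1 and Cbx7, subunits of Polycomb repressive complex 1, fell by 1.54 and 1.43 on the log2 scale. The demethylase gene Kdm6b, which removes the Polycomb mark, had an effect of log2 0.72 and did not pass (limma adjusted p = 0.0738), nor did Phc2 at 0.61 (0.0713). Of 7 genes of the insulator and cohesin, Ctcfl fell with retinoic acid, by 0.79 on the log2 scale, and 0 rose; Ctcf was at 0.04 and Rad21 at 0.17 (limma adjusted p = 0.906 and 0.556).

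Markers of cell type moved on the same arrays. Of 9 pluripotency genes past the filter, 0 rose and 5 fell, and Dppa5a, the tenth, was below it on all 4 arrays. Tdgf1 fell by 4.13, Utf1 by 3.41, Dnmt3b by 2.82, Nanog by 1.97 and Pou5f1 by 1.58 on the log2 scale. The mean signal of the list went from 10.1 to 8.57 in wild-type P19 and from 10.4 to 8.77 in the Ctcfl clone, and Zfp42, at log2 6.12 to 6.46, stayed within the background range on every array. Of 6 neural progenitor genes 4 rose and 0 fell, with Sox1 at 3.41-fold and Pax6 at 3.15-fold. Sox1 rose by log2 1.28 in wild-type P19 and 2.26 in the Ctcfl clone, and Pax6 by 2.22 and 1.09. Of 5 neuron genes 1 rose, Dcx, and 2 fell, Elavl3 and Stmn2. Of 5 forebrain and midbrain genes 0 rose and 1 fell, Otx2, by 3.42 on the log2 scale. Of the mesoderm, endoderm and mesenchyme lists, 1 of 6, 2 of 7 and 1 of 6 rose and 0 fell in each, with Meox1 at 4.98-fold, Gata6 at 8.47-fold and Foxa1 at 7.92-fold, and Dcn, a matrix proteoglycan gene, at log2 3.80. Dcn passed the filter through its retinoic acid arrays, with vehicle signals of 5.94 and 5.90, so its effect is not exact. Which of these cells carried the HoxB signal was not tested.

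The genes nearest in pattern to the HoxB cluster were sought by the distance between centred log2 profiles over the 4 arrays, relative to the median HoxB profile. The nearest was Hoxa3, at a distance of 0.035, which is a Hox gene of the hindbrain and pharyngeal arches. It was followed by Tmem178 at 0.0726, Wfikkn1 at 0.106, Mapk13 at 0.122, Hoxa4 at 0.209, Cdc42ep1 at 0.211, Fbn2 at 0.241 and Metrn at 0.253. Wfikkn1 encodes a secreted protease inhibitor that binds growth factors, Mapk13 a p38 kinase and Fbn2 a fibrillin of embryonic matrix. Each profile has 4 points, which limits how far such a match sets genes apart.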

How the data were processed

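RNA of 4 groups of P19 cells was measured on Affymetrix arrays, 1 array per group. The deposited unit is a log2 signal per probe set, and the submitters' processing notes name Affymetrix Expression Console and RMA, which subtracts background and normalizes the arrays to each other. Transcriptome Analysis Console is also named there. Genome build and versions are not given in the sources used here.

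Of 41345 probe sets, 23521 had 1 gene symbol in the platform annotation, 1814 had several and 16010 were not listed in it. Where a gene had several probe sets of its own, that of highest mean stood for it, and genes below log2 6 on all arrays were left out. Fits used limma 3.58.1 in R 4.3.3 (lmFit, eBayes; prior degrees of freedom 5.49) with two-sided p-values and Benjamini-Hochberg adjustment over 18310 genes. Standard errors are moderated. The fit was tested on simulated data, where large changes were recovered and the share of wrong calls was above the nominal level in most draws, so adjusted p-values near 0.05, such as that of Hoxb13, are less firm than they read. Nothing says that the arrays came from separate cultures. Neighbouring genes, promoters and microRNAs came from RefSeq tables on GRCm38.p6.

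All HoxB genes were described. Up to 4 genes per list with the largest retinoic acid effect, Ctcfl and Ctcf, and the 8 genes of nearest pattern were named, and other genes were named after their values were seen. Members and lists were chosen with earlier results of these data known. Alternatives were the filter, quantile normalization, the mean of probe sets, the variance prior, a 2-fold limit, single-term models and fold thresholds.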

Additional observations from a re-analysis of the deposited data

Results flagged for a closer look

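The line difference, Ctcfl clone minus wild type, had opposite signs in the states for 4 HoxB genes, a difference that single arrays leave untested. It was log2 -0.025 in vehicle and 0.053 in retinoic acid for Hoxb2, -0.24 and 0.087 for Hoxb3, -0.038 and 0.38 for Hoxb7, and -0.28 and 0.35 for Hoxb8.

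The retinoic acid difference had opposite signs in the lines for 3 other genes named from the lists, also untested. It was log2 0.15 in wild-type P19 and -0.068 in the Ctcfl clone for Ctcf, 0.076 and -0.69 for En1, a midbrain homeobox gene, and -0.61 and 0.078 for Col1a1, a collagen gene.

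Probe sets outside the gene comparisons had higher values with retinoic acid. The probe set assigned to Mir10a and Hoxb4 together differed by log2 2.70 in wild-type P19 and 3.42 in the Ctcfl clone, with all 4 signals within the range of the olfactory receptor background, so these differences are not exact. The probe set assigned to Hoxb3 and Hoxb2 together differed by log2 0.70 and 1.00.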

How the results depend on the processing

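The 10 HoxB genes kept the direction of their retinoic acid effect under every alternative, and all 10 were called without the filter, with the filter at log2 7, with quantile normalization, with the mean of probe sets and with either other variance prior. At log2 7, Hoxb2, Hoxb4, Hoxb5, Hoxb6, Hoxb7, Hoxb8 and Hoxb13 passed the filter through their retinoic acid arrays alone. That setting therefore adds no support for their rise. Against a 2-fold limit 5 were called, and with retinoic acid as the single term 9. Over all genes those settings called 102 and 435 in place of 1217. With the mean of probe sets the effect of Hoxb5 was log2 1.72 in place of 2.83, below Hoxb6 and Hoxb8. For the line, 0 HoxB genes were called throughout, while over all genes the 8 calls became 23 with quantile normalization, 15 with a trended prior, 2 against a 2-fold limit and 0 with line as the single term. At 1.5-fold in place of 2-fold, 1 HoxB gene, Hoxb8, differed in response between the lines. Its difference of log2 0.64 ranked 1170 of 18310 genes from the top, which does not set it apart from the background. Spearman's rho along the cluster lay between -0.87 and -0.92 in wild-type P19 over the value settings. Replicates could not be paired, because each group has 1 array and no replicate numbers to match. The line term of the fit already takes the retinoic acid difference within each line, and leaving it out gave the 9 calls above. Leaving out an array leaves the difference in the other line alone, without a test. The number of arrays, and vehicle signals near background, limit every fold.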
